A study of Mus musculus with 6 samples.

Results

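The chromobox genes encode small chromatin readers, and 7 of them were followed here in organoids from mouse small intestine exposed to thyroid hormone. The members, Cbx1, Cbx2, Cbx3, Cbx5, Cbx6, Cbx7 and Cbx8, were taken by gene symbol from the 27179 genes of the deposited table, and each symbol matched 1 row. They fall into 3 heterochromatin members (Cbx1, Cbx3 and Cbx5) and 4 Polycomb members (Cbx2, Cbx6, Cbx7 and Cbx8). The set and this division were proposed with the fold changes between T3 and vehicle in view, so the members count as selected on those values. The members' differences between treatments are therefore given as a description, with standard errors and without p-values.

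The organoids were wild-type (WT) epithelial cultures grown from small intestine in Matrigel with IntestiCult medium. The 2 groups were organoids given T3, the active thyroid hormone, at 1e-07 M for 17 h (3 libraries) and organoids given the vehicle for 17 h (3 libraries). Whether each library stands for its own culture or animal is not in the labels, so the spread behind every p-value here is that of the 6 libraries and could be technical. Directional RNA libraries were sequenced, and levels are the reads per gene as the authors scaled them between libraries and rounded them. The columns totalled 29510422 to 29974091 normalized reads with T3 and 28197080 to 28611883 with vehicle. As a check of the labels, Klf9, a transcription factor known to be induced by T3, stood at 2080, 2201 and 2151 normalized reads with T3, against 362, 329 and 366 with vehicle.

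Chromobox proteins bind methylated histone tails through a chromodomain. Cbx5, Cbx1 and Cbx3 encode the HP1 proteins HP1 alpha, HP1 beta and HP1 gamma, which read H3K9 methylation, dimerise through a chromoshadow domain and help to form heterochromatin. Cbx2, Cbx6, Cbx7 and Cbx8 encode alternative subunits of canonical Polycomb repressive complex 1 (PRC1), which reads H3K27 trimethylation and compacts target genes, while its RING1 or RNF2 subunit attaches ubiquitin to histone H2A. Canonical PRC1 complexes differ in which chromobox subunit they carry, and that choice is known to change as mouse embryonic stem cells differentiate.

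Several of the genes lie close to a relative or to an unrelated gene (build mm10, per the file headers). Cbx2 (gene ID 12416, chromosome 11, 119023029 to 119031270, plus strand) and Cbx8 (gene ID 30951, chromosome 11, 119038436 to 119040913, minus strand) are neighbours that end toward each other, 7165 bases apart. Cbx6 (gene ID 494448, chromosome 15, 79823898 to 79834333, minus strand) and Cbx7 (gene ID 52609, chromosome 15, 79915807 to 79932646, minus strand) lie on the same strand with Apobec3 between them. Cbx5 (gene ID 12419, chromosome 15, 103191546 to 103239816, minus strand) starts 615 bases from Hnrnpa1, and Cbx3 (gene ID 12417, chromosome 6, 51470616 to 51483704, plus strand) starts 721 bases from Hnrnpa2b1. In both pairs the genes run away from each other. Cbx1 (gene ID 12412) lies apart on chromosome 11, 96789136 to 96808640, plus strand.

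The sequence before the genes' starts was read from RefSeq promoters (GRCm38.p6), which matched 6 of the 7 members with 8 windows of 250 bases before a start. Cbx2 was the member without a window, so no motif was searched before its start. All 8 windows held more CG dinucleotides than the median window, between 7 and 31 against a median of 6 over all 32851 windows. The direct repeat that thyroid hormone receptors are known to bind, a DR4 element of 2 AGGTCA copies spaced by 4 bases, and a single AGGTCA were searched on both strands and were in none of the 8 windows, while 0.0152% and 14.0% of all windows held them. The E-box CACGTG was in 1 window each of Cbx5, Cbx6 and Cbx8, where 6.02% of all windows hold it. TTTGGCGC, a form of the E2F motif, was in 1 window of Cbx3, where 0.417% of all windows hold it. These matches describe the letters only. The stretches below run 5′ to 3′ on the gene's strand, with the motif in capitals, and are shown because they are what these start regions hold of the 4 motifs searched.
Cbx5, chr15:103239971-103240000, minus strand: tgctgcctggaaCACGTGaaatggcgggcg
Cbx3, chr6:51470437-51470466, plus strand: tggagccccgcTTTGGCGCgctccgagacg
Cbx6, chr15:79834342-79834371, minus strand: ggcccggagcatCACGTGacggcccgcagc
Cbx8, chr11:119040994-119041023, minus strand: cgtcgttagcaaCACGTGgggcgggaggaa

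All 7 members were expressed and passed the filter on low values, and all 7 had a lower mean with T3. Log2 fold changes ran from -0.61 for Cbx2 to -0.06 for Cbx7, with a median of -0.20, where the median over all 13052 genes tested was -0.01 and 51.3% of those genes had a negative value. The fit across all genes, limma on log2(value + 1) with Benjamini-Hochberg adjustment and a threshold of 0.05, called 4 of the 7 lower (Cbx1, Cbx2, Cbx3 and Cbx6) and 0 higher, where 20.8% of all genes tested were called lower. In the authors' deposited table, Cbx2, Cbx3 and Cbx6 alone, 3 of the 7, had an adjusted p under 0.05 and a lower value, where 15.8% of the genes given an adjusted p in that table did. At 5 members every T3 library lay below every vehicle library, as 26.5% of all genes did. Because the members were proposed from this comparison, nothing is read from these counts.

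Of the heterochromatin members, Cbx3 had the largest difference. Cbx3, which encodes HP1 gamma, an HP1 protein also found over transcribed genes, stood at 1039, 1075 and 1042 normalized reads with T3, against 1284, 1262 and 1241 with vehicle. The libraries of each group lay close together and the groups did not overlap. The mean was 1052 ± 20.0 with T3 and 1262 ± 21.5 with vehicle (SD, n = 3 each), a log2 fold change of -0.26 ± 0.04 (SE) or 1.20-fold lower. Many processed pseudogenes are known for Cbx3, so its reads could be split or lost in the counting. Cbx3-ps5, the pseudogene listed under that name, was at 0 in every library. That value does not settle the question, since how reads that match several places were counted is not known.

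Cbx1, which encodes HP1 beta, stood at 2197, 2119 and 2109 normalized reads with T3, against 2256, 2329 and 2484 with vehicle. The groups did not overlap, but the gap between T3 replicate 1 and vehicle replicate 1 was small. The mean was 2142 ± 48.2 with T3 and 2356 ± 116 with vehicle, a log2 fold change of -0.14 ± 0.05 (SE). The call of Cbx1 was lost in 9 of 17 alternatives, among them the authors' deposited comparison, a replicate block and 5 of the 6 sets without a library, all except the set without vehicle replicate 1.

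Cbx5, which encodes HP1 alpha, the form most concentrated at the heterochromatin around centromeres, stood at 8457, 8687 and 9426 normalized reads with T3, against 10769, 9328 and 8931 with vehicle. The groups overlapped, since T3 replicate 3 was above vehicle replicates 2 and 3. The mean was 8857 ± 506 with T3 and 9676 ± 967 with vehicle, a log2 fold change of -0.12 ± 0.07 (SE). Vehicle replicate 1 was the highest library, and without it the log2 fold change was -0.04. Upper-quartile scaling and equal column totals turned Cbx5 and Cbx8 into calls, with log2 fold changes of -0.18 for Cbx5 and -0.26 for Cbx8 by upper-quartile scaling, and -0.19 for Cbx5 and -0.27 for Cbx8 by equal totals. Those scalings moved all genes downward. The median over all genes tested went from -0.009 to -0.065 and -0.075, and genes called lower went from 2716 to 3691 and 3855.

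The Polycomb members differed more among themselves. Cbx2, a subunit known in mice for its part in Hox gene control, chromatin compaction and gonadal development, stood at 635, 593 and 695 normalized reads with T3, against 1003, 900 and 1031 with vehicle. No T3 library came near the lowest vehicle library. The mean was 641.0 ± 51.3 with T3 and 978 ± 69.0 with vehicle, a log2 fold change of -0.61 ± 0.08 (SE) or 1.53-fold lower, and 6.12% of all genes tested had a lower value.

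Cbx6, the Polycomb subunit with the highest level here, stood at 2384, 2405 and 2435 normalized reads with T3, against 2960, 2816 and 2992 with vehicle. The T3 libraries lay close together and all below the vehicle libraries. The mean was 2408 ± 25.6 with T3 and 2923 ± 93.8 with vehicle, a log2 fold change of -0.28 ± 0.04 (SE) or 1.21-fold lower. Of the 5449 exonic bases of Cbx6, 659 are shared on the same strand with Npcd, which was listed at 0 in every library, so how reads in those bases were counted is not known.

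Cbx8, a subunit that binds several chromatin partners besides PRC1, had the lowest level of the 7 and stood at 208, 217 and 222 normalized reads with T3, against 229, 254 and 262 with vehicle. The groups did not overlap, with T3 replicate 3 and vehicle replicate 1 close to each other. The mean was 216 ± 7.09 with T3 and 248 ± 17.2 with vehicle, a log2 fold change of -0.20 ± 0.09 (SE). Without vehicle replicate 3 it was -0.16 and without vehicle replicate 1 it was -0.26.

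Cbx7, the main Polycomb chromobox subunit of mouse embryonic stem cells, differed least between the treatments. It stood at 1132, 1117 and 1096 normalized reads with T3, against 1095, 1178 and 1225 with vehicle, and the groups overlapped because vehicle replicate 1 was the lowest library of all. The mean was 1115 ± 18.1 with T3 and 1166 ± 65.8 with vehicle, a log2 fold change of -0.06 ± 0.05 (SE). It was -0.11 without vehicle replicate 1 and -0.03 without vehicle replicate 3.

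**Figure D1:**
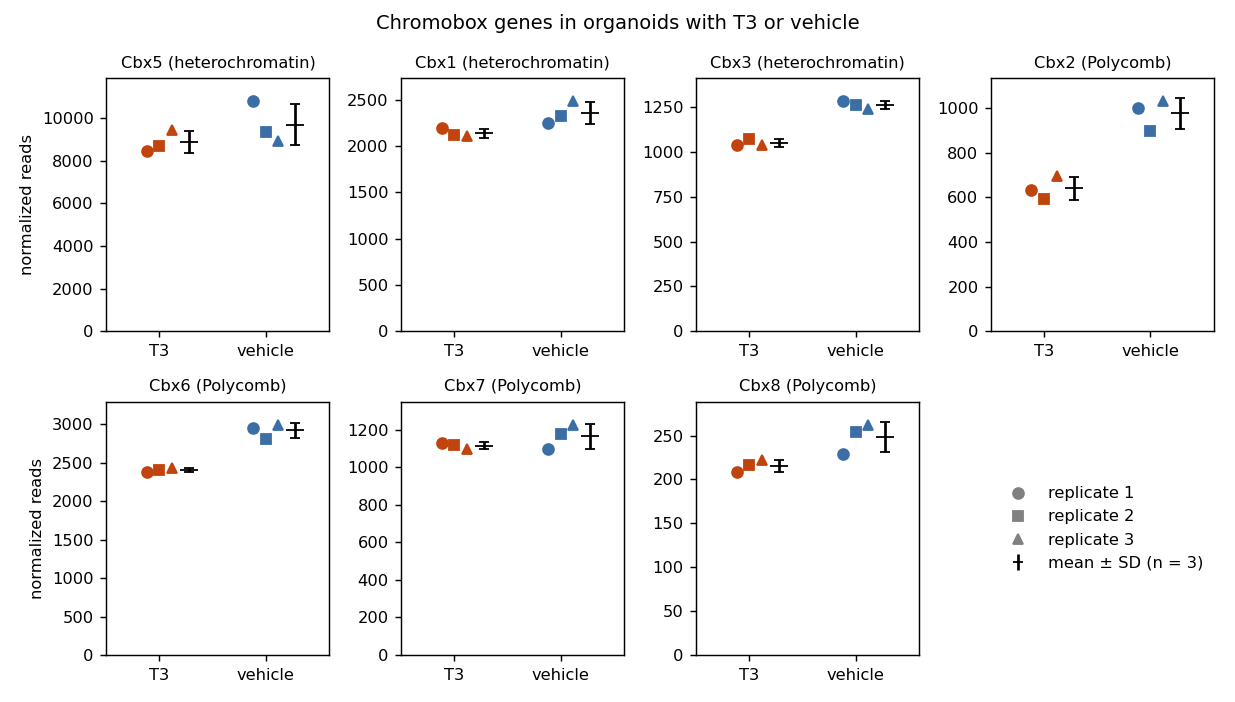
Normalized reads of the 7 chromobox genes (vertical axes, each from 0) in 3 T3 and 3 vehicle libraries, with marker shapes for replicates and the mean ± SD beside them. The T3 points lie below the vehicle points at Cbx1, Cbx3, Cbx2, Cbx6 and Cbx8 and overlap them at Cbx5 and Cbx7.

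**Figure D2:**
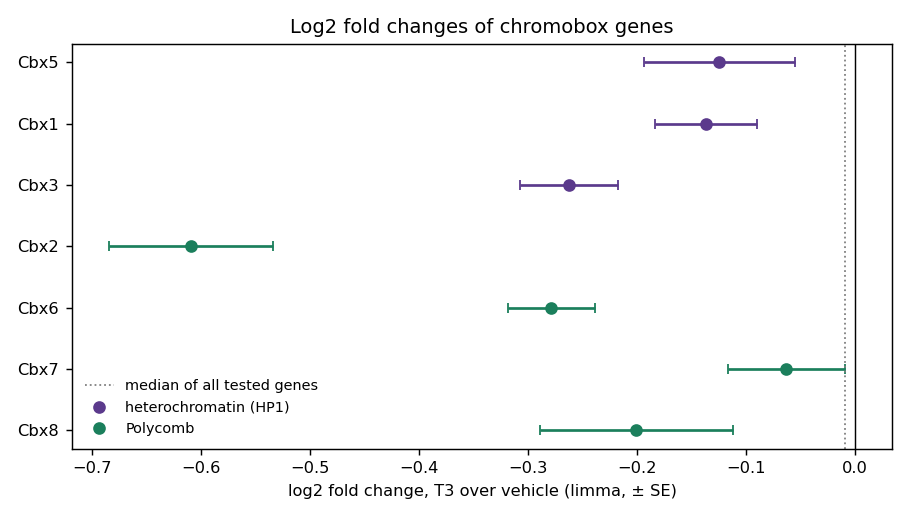
Log2 fold changes of T3 over vehicle (horizontal axis) with standard errors for the 7 members, and the median of all tested genes as a dotted line. Values run from -0.61 for Cbx2 to -0.06 for Cbx7.

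Levels were compared between genes as normalized reads per kilobase of exon. On that scale the HP1 genes led in both groups. With T3, Cbx1 had a level of 1681 ± 37.8 reads per kilobase, Cbx5 986 ± 56.3 and Cbx3 583 ± 11.1, and with vehicle Cbx1 had 1850 ± 91.4, Cbx5 1077 ± 108 and Cbx3 700.1 ± 11.9. Below them, the levels with T3 were 442 ± 4.70 for Cbx6, 385 ± 6.25 for Cbx7, 171 ± 13.7 for Cbx2 and 155 ± 5.09 for Cbx8, and with vehicle 536 ± 17.2 for Cbx6, 403 ± 22.8 for Cbx7, 261 ± 18.4 for Cbx2 and 178 ± 12.4 for Cbx8. The order was the same in both groups, and in the vehicle libraries no gene overlapped the next in that order. In the T3 libraries Cbx2 and Cbx8 overlapped, with ranges of 159 to 186 and 149 to 159, and the level of Cbx2 was 1.11 times that of Cbx8 with T3, against 1.47 times with vehicle. Cbx7 stood closer to Cbx6, whose level was 1.15 times that of Cbx7 with T3, against 1.33 times with vehicle.

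The make-up of the set was then described within each library, which does not depend on the scaling between libraries. The HP1 genes held 73.9%, 73.9% and 73.7% of the 7 genes' summed reads per kilobase in the T3 libraries, against 73.1%, 72.6% and 71.7% in the vehicle libraries. Every T3 library was above every vehicle library, with means of 73.8% ± 0.0861 with T3 and 72.5% ± 0.732 with vehicle, a difference of 1.36 percentage points. By gene, the Polycomb shares of that sum differed, T3 minus vehicle, by -1.33 points for Cbx2, -0.68 for Cbx6, -0.05 for Cbx8 and 0.70 for Cbx7. Since the division was proposed with the fold changes in view, nothing is read from the separation of the groups. Without the length correction the groups overlapped, at 72.8%, 73.3% and 73.9% in the T3 libraries, against 73.0%, 71.5% and 69.7% in the vehicle libraries. The summed HP1 level was 3250 ± 28.9 reads per kilobase with T3 and 3626 ± 57.8 with vehicle, and the summed level of the Polycomb members was 1154 ± 15.4 with T3 and 1379 ± 49.6 with vehicle. Averaged over genes, the log2 fold change was -0.17 for the HP1 genes and -0.29 for the Polycomb members, a difference of 0.11 that was 0.07 without vehicle replicate 3. The Polycomb values ran from -0.61 for Cbx2 to -0.06 for Cbx7, a range that takes in the HP1 values of -0.26 to -0.12. The difference between the means is therefore not a trait shared by the Polycomb members.

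Inside each division the genes did not move in step. Among the Polycomb members the share of Cbx2 was 14.8%, 13.9% and 15.9% in the T3 libraries, against 19.8%, 17.9% and 19.2% in the vehicle libraries, and the share of Cbx7 was 34.1%, 33.8% and 32.4% with T3, against 27.9%, 30.2% and 29.5% with vehicle. The shares of both genes separated the groups in opposite directions. Shares of a sum depend on each other, and the reads of Cbx7 itself did not rise. They overlapped between the groups, with a log2 fold change of -0.06. These genes were also the extremes of the fold changes that were in view when the set was proposed, so nothing is read from the separation. Cbx6 held 38.3% ± 0.299 with T3 and 38.9% ± 1.05 with vehicle, and Cbx8 held 13.4% ± 0.358 with T3 and 12.9% ± 0.715 with vehicle. Among the HP1 genes the share of Cbx3 was 17.8%, 18.5% and 17.6% in the T3 libraries, against 19.3%, 19.6% and 19.0% in the vehicle libraries, while the shares of Cbx1 and Cbx5 overlapped between the groups.

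Pair by pair, 11 of the 21 ratios between members did not overlap between the groups. Ratios of a member to every other gene tested did not overlap, in either direction, at 40.8% of those genes for Cbx5, the lowest share of the 7, and at 82.4% for Cbx2, the highest. Cbx2 was lower with T3 relative to each of the 6 other members, and likewise relative to 80.2% of all other genes tested. Cbx7 was higher with T3 relative to Cbx1, Cbx2, Cbx3, Cbx6 and Cbx8, where it was higher relative to 16.7% of all other genes tested. Cbx2 and Cbx7 had the lowest and the highest log2 fold change of the members. The members were proposed with those values in view, so nothing is read from the number of ratios that did not overlap. The log2 ratio of Cbx2 to Cbx7 was -0.80 ± 0.13 with T3 and -0.25 ± 0.13 with vehicle (SD, n = 3 each). The ratio of Cbx5 to Cbx1 overlapped, at 2.05 ± 0.11 with T3 and 2.03 ± 0.21 with vehicle.

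**Figure D3:**
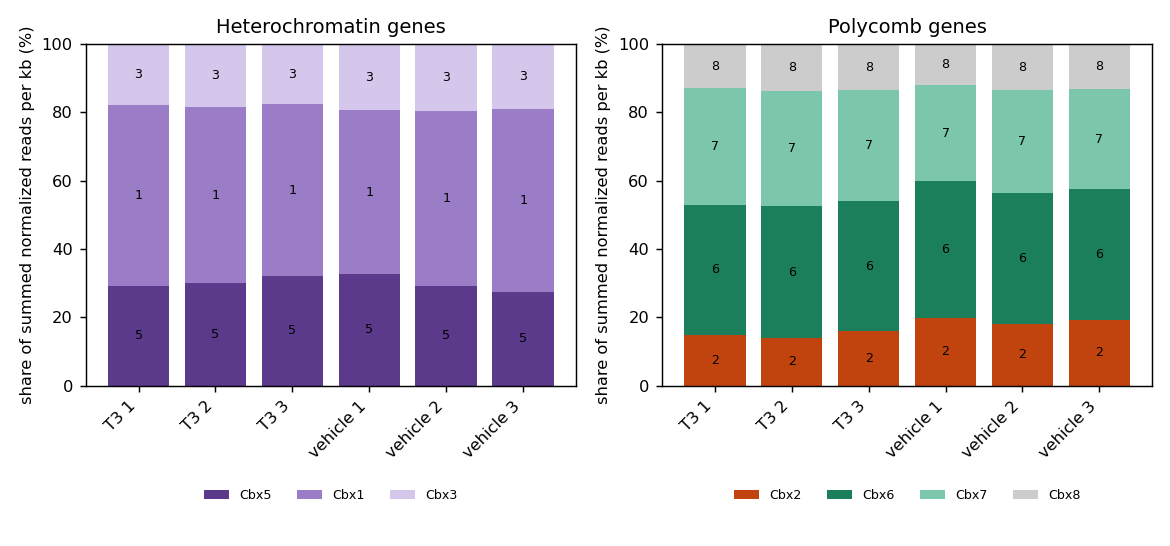
Share of each gene in the summed normalized reads per kilobase of its division (vertical axis, %) in each of 3 T3 and 3 vehicle libraries, with bars labelled by the number in the gene's name. In the Polycomb panel the Cbx2 share is 13.9% to 15.9% with T3 and 17.9% to 19.8% with vehicle, and the Cbx7 share is larger with T3.

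The genes that face the starts of Cbx5 and Cbx3 were taken by position, and their values lay in opposite directions. Hnrnpa1, an RNA-binding protein of splicing that lies 615 bases from Cbx5, stood at 9527, 9730 and 10172 normalized reads with T3, against 11063, 11115 and 11420 with vehicle, and fell (log2 fold change -0.19 ± 0.04 SE, limma adjusted p = 0.00323). Hnrnpa2b1, a related RNA-binding protein 721 bases from Cbx3, stood at 42256, 41393 and 42263 with T3, against 39255, 38676 and 39317 with vehicle. Its groups did not overlap and it was higher on average while Cbx3 was lower, but it was not called (log2 fold change 0.10 ± 0.04, limma adjusted p = 0.0733, and called with TMM scaling at 0.0462 and with robust moderation at 0.0286). Neither Cbx5 nor Cbx3 shared exonic bases with another gene.

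**Figure D4:**
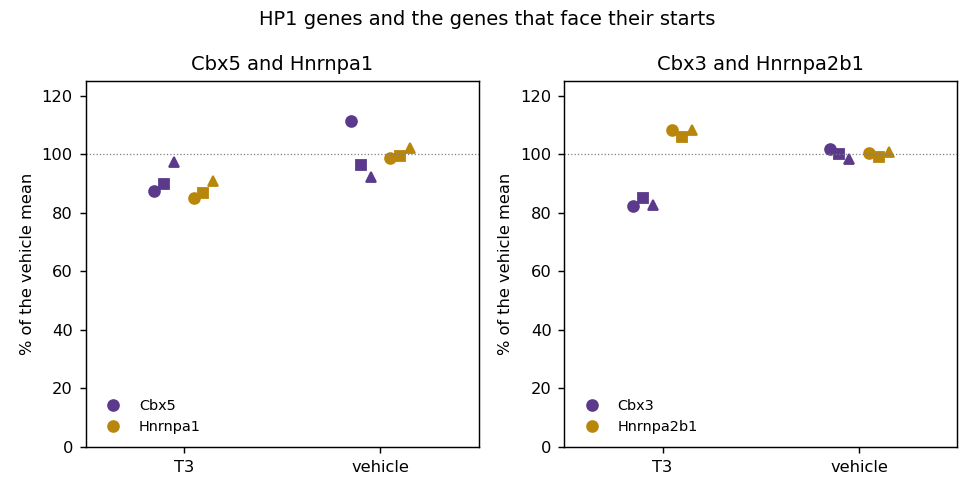
Levels of Cbx5 and Hnrnpa1 (left) and of Cbx3 and Hnrnpa2b1 (right) in 3 T3 and 3 vehicle libraries, as a percentage of each gene's vehicle mean (vertical axis, from 0), with marker shapes for replicates as in the plot of members by library. Hnrnpa2b1 lies above 100% with T3 while Cbx3 lies below.

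The other nearest genes on either side of the members follow. Apobec3, an antiviral cytidine deaminase between Cbx6 and Cbx7, rose to 2577 ± 110 normalized reads with T3, against 1522 ± 175 with vehicle (log2 fold change 0.76 ± 0.08, limma adjusted p = 4.09e-05). Pdgfb, a growth factor gene before the start of Cbx7, rose to 772 ± 49.5 with T3, against 508 ± 23.6 with vehicle (0.60 ± 0.07, limma adjusted p = 8.26e-05). Beside Cbx3, the sorting nexin gene Snx10 rose to 1049 ± 42.8 with T3, against 654 ± 41.4 with vehicle (0.68 ± 0.06, limma adjusted p = 2.14e-05). On the sides of Cbx1, Nfe2l1, a stress-responsive transcription factor, rose to 5327 ± 385 with T3, against 4569 ± 70.6 with vehicle (0.22 ± 0.05, limma adjusted p = 0.00703), and Snx11, which faces the start of Cbx1 from 11580 bases away, rose to 474 ± 22.5 with T3, against 406 ± 24.4 with vehicle (0.23 ± 0.07, limma adjusted p = 0.0304), a call lost without T3 replicate 2 (0.086), T3 replicate 3 (0.0741), vehicle replicate 1 (0.0868) or vehicle replicate 3 (0.0791), with upper-quartile scaling (0.0926) or equal column totals (0.115), and in the authors' deposited table (0.083). Smug1, next to Cbx5, stood at 1162 ± 30.1 with T3 and 1206 ± 7.57 with vehicle (limma adjusted p = 0.36), and Nptxr, next to Cbx6, at 10.3 ± 2.08 with T3 and 8 ± 2.65 with vehicle (limma adjusted p = 0.44). Enpp7 beside Cbx2, Gm11517 within Cbx1, and Gm10856 and Npcd at Cbx6 were at or near 0 and were not tested.

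The other subunits of PRC1 were mostly lower with T3. Of 18 genes, all tested, 10 fell and 2 rose, with a median log2 fold change of -0.24, where 44.8% of all genes tested were called, 20.8% lower and 24.0% higher. This list and those that follow were chosen with earlier results of these data known, so their counts are a description and no separate support. Scmh1, a Polycomb protein of the Sex comb on midleg family, stood at 889, 801 and 931 normalized reads with T3, against 1252, 1305 and 1256 with vehicle (log2 fold change -0.54 ± 0.06, limma adjusted p = 8.49e-05). Rnf2, the ubiquitin ligase subunit also called RING1B, fell to 913 ± 32.5 with T3, against 1162 ± 50.9 with vehicle (-0.35 ± 0.05, limma adjusted p = 0.000589), and Pcgf6, the subunit that defines a variant PRC1, to 1030 ± 16.5 with T3, against 1253 ± 37.6 with vehicle (-0.28 ± 0.05, limma adjusted p = 0.000929). In the other direction Phc2, a polyhomeotic subunit of canonical PRC1, rose to 2403 ± 42.8 with T3, against 2019 ± 34.0 with vehicle (0.25 ± 0.04, limma adjusted p = 0.000595). The 2 rises became 1 without T3 replicate 1, T3 replicate 2, vehicle replicate 2 or vehicle replicate 3, and 9 to 11 genes fell in the sets without a library.

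Of 11 genes of PRC2, the complex that methylates H3K27, all tested, 5 fell and 1 rose, with a median log2 fold change of -0.13. That is 54.55% called, where 44.8% of all genes tested were called. Jarid2, a PRC2 accessory subunit, was the 1 that rose, at 2638, 2625 and 2650 normalized reads with T3, against 1985, 1860 and 1845 with vehicle (0.48 ± 0.04, limma adjusted p = 1.66e-05). Rbbp7, a histone-binding protein shared with other complexes, fell to 11888 ± 465 with T3, against 15444 ± 185 with vehicle (-0.38 ± 0.04, limma adjusted p = 6.21e-05), and Aebp2 to 2626 ± 83.0 with T3, against 3097 ± 156 with vehicle (-0.24 ± 0.05, limma adjusted p = 0.00282). Rbbp4 stood at 7612 ± 340.1 with T3 and 8425 ± 186 with vehicle (-0.15 ± 0.04, limma adjusted p = 0.0187, lost without T3 replicate 1 (0.0675), T3 replicate 2 (0.0809), vehicle replicate 3 (0.0551) or a mean-variance trend (0.058)). The number that fell was 2 without T3 replicate 1 and 3 without T3 replicate 2, vehicle replicate 1 or vehicle replicate 2.

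Genes of H3K9 methylation and heterochromatin, the partners of the HP1 proteins, showed small differences. Of 22 genes, all tested, 7 fell and 1 rose, with a median log2 fold change of -0.11. The share called was 36.4%, below the 44.8% of all genes tested. Kmt5c, which methylates histone H4 in heterochromatin, rose to 2297 ± 192 normalized reads with T3, against 1585 ± 129 with vehicle (0.53 ± 0.07, limma adjusted p = 0.000289). Uhrf1, which guides DNA methylation at replication, fell to 4287 ± 188 with T3, against 5125 ± 213 with vehicle (-0.26 ± 0.05, limma adjusted p = 0.00155), Pogz, an HP1-binding protein, to 1217 ± 48.8 with T3, against 1437 ± 66.7 with vehicle (-0.24 ± 0.05, limma adjusted p = 0.00469), and Ehmt2, an H3K9 methyltransferase, to 5497 ± 110 with T3, against 6105 ± 119 with vehicle (-0.15 ± 0.04, limma adjusted p = 0.00739). With upper-quartile scaling or equal column totals 12 of the 22 fell. The rises were 2 without vehicle replicate 1.

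Demethylases of H3K9 and H3K27 mostly did not pass the test. Of 12 genes tested of 13, 2 rose and 1 fell, with a median log2 fold change of 0.04, and without vehicle replicate 2 the number that fell was 2. The share called was 25%, below the 44.8% of all genes tested. Kdm6b, which removes H3K27 methylation, stood at 3671, 3888 and 3525 normalized reads with T3, against 2417, 2447 and 2448 with vehicle (0.60 ± 0.04, limma adjusted p = 4.5e-06). Kdm7a rose to 1143 ± 59.7 with T3, against 756 ± 52.3 with vehicle (0.60 ± 0.07, limma adjusted p = 6.61e-05), and Kdm4a fell to 2848 ± 13.7 with T3, against 3198 ± 88.7 with vehicle (-0.17 ± 0.04, limma adjusted p = 0.0055). Among H2A deubiquitinase genes 5 of 6 were tested, and 40% of those were called, near the 44.8% of all genes tested. Usp16 rose to 2383 ± 76.9 with T3, against 2081 ± 23.5 with vehicle (limma adjusted p = 0.00353), and Asxl1, a cofactor of the deubiquitinase Bap1, fell to 2215 ± 90.5 with T3, against 2519 ± 154 with vehicle (limma adjusted p = 0.0185). The call of Asxl1 was lost without T3 replicate 1 (0.066), T3 replicate 2 (0.0686), vehicle replicate 1 (0.0522), vehicle replicate 3 (0.0531) or a mean-variance trend (0.0593). No H2A deubiquitinase gene was called lower without T3 replicate 1, T3 replicate 2 or vehicle replicate 1, and 2 were called higher without vehicle replicate 1.

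Among other genes with a chromodomain, 1 stood apart. Chd3, a remodelling ATPase of the NuRD complex, rose 3.99-fold, at 3815, 4087 and 3707 normalized reads with T3, against 959, 997 and 948 with vehicle (log2 fold change 2.00 ± 0.05, limma adjusted p = 3.42e-09). Chd7 fell to 1637 ± 94.6 with T3, against 2026 ± 235 with vehicle (-0.30 ± 0.08, limma adjusted p = 0.0105), Chd6 to 1180 ± 59.7 with T3, against 1468 ± 208 with vehicle (-0.31 ± 0.09, limma adjusted p = 0.0186, 0.0639 without T3 replicate 2 and 0.0685 without a mean-variance trend), and Chd4, the other main NuRD ATPase, to 13240 ± 777 with T3, against 14981 ± 1207 with vehicle. The groups of Chd4 overlapped, and its call (-0.18 ± 0.06, limma adjusted p = 0.0481) was lost without T3 replicate 1 (0.124), T3 replicate 2 (0.162), vehicle replicate 1 (0.142) or vehicle replicate 3 (0.124), with TMM scaling (0.0583), with no filter on low values (0.0886) or without a mean-variance trend (0.124). In all 3 of 15 fell and 1 rose, with a median of 0.01. The share called was 26.7%, below the 44.8% of all genes tested. The number that fell was 1 without T3 replicate 2 and 2 without T3 replicate 1, vehicle replicate 1 or vehicle replicate 3, and the number that rose was 2 without vehicle replicate 1.

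Genes known as Polycomb targets were nearly silent. Of 41 such genes, Cdkn2a, Cdkn2b and the Hox genes, 6 passed the filter on low values and 13 were at 0 in every library. Of the 6 tested, 2 were called, or 33.3%, where 44.8% of all genes tested were. Of these 2, Hoxb4 passed the filter only through the group where it was higher, so nothing is read from that share. Cdkn2b, a cell cycle inhibitor, stood at 283, 289 and 217 normalized reads with T3, against 94, 146 and 119 with vehicle (1.14 ± 0.17, limma adjusted p = 0.000483). Cdkn2a, the neighbouring classical Polycomb target, averaged 1.00 with T3 and 0.667 with vehicle and was not tested. Hoxb4 stood at 20, 12 and 14 with T3, against 8, 6 and 8 with vehicle, so it passed the filter only through its T3 libraries, where it was higher (limma adjusted p = 0.0326). The filter thus favoured a rise of Hoxb4, and its call is not read as a result. Its call was absent from the authors' deposited comparison, and the list held 1 call rather than 2 in 5 of the 6 sets without a library, all except the set without vehicle replicate 1. In the sets without a T3 library Hoxb4 could not pass the filter, so those sets did not test it. Without vehicle replicate 2 or vehicle replicate 3 it was tested and not called (limma adjusted p = 0.0913 and 0.0557).

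**Figure D5:**
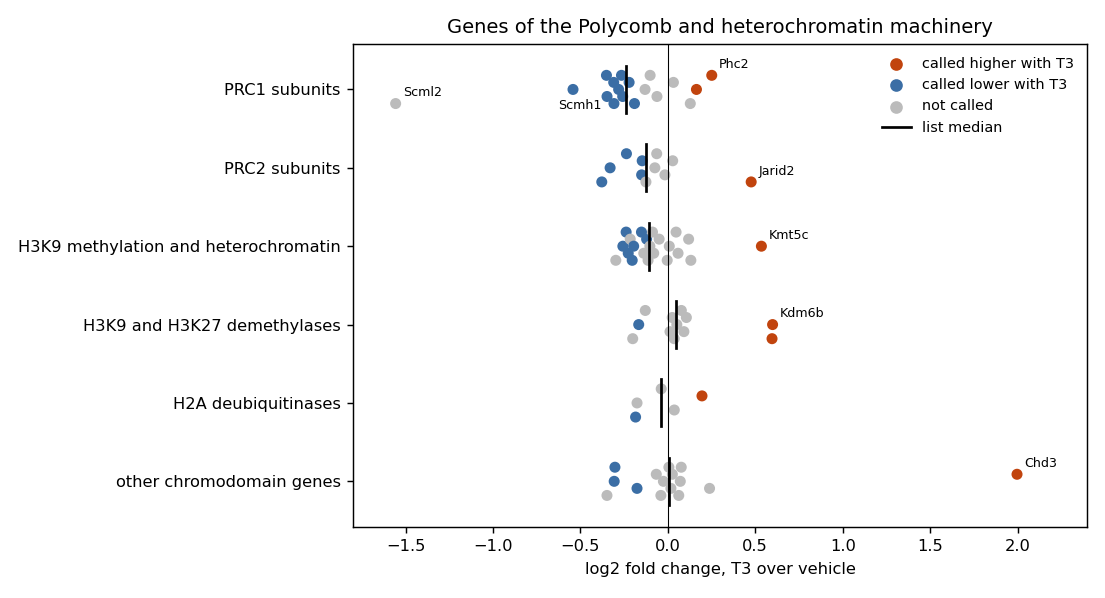
Log2 fold changes of T3 over vehicle (horizontal axis) for the tested genes of 6 lists, coloured by the limma call, with a black bar at each list's median. The PRC1 median lies at -0.24, and Chd3 lies apart at 2.00 among the other chromodomain genes.

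Cell type markers moved between the groups beside these genes. Crypt stem cell markers fell at 6 of 10 genes and rose at 1, with sums of 88544 to 97190 normalized reads with T3 and 116172 to 132189 with vehicle, and enterocyte markers rose at 8 of 12 and fell at 1, with sums of 128280 to 145180 with T3 and 80399 to 87827 with vehicle. Olfm4, a stem cell marker, stood at 5200 ± 489 with T3 and 27003 ± 2876 with vehicle, and Sis, the enterocyte sucrase-isomaltase, at 37607 ± 1930 with T3 and 15566 ± 1155 with vehicle. Proliferating cell genes were mixed, with 4 lower and 2 higher of 13, a median log2 fold change of -0.02, and sums of 87571 to 95375 with T3 and 84649 to 95507 with vehicle. The shares called were 70% for stem cell, 75% for enterocyte and 46.15% for proliferating cell genes, where 44.8% of all genes tested were called. In bulk RNA, fewer cells of a type and less RNA per cell cannot be told apart, and the part of these markers in the chromobox values was not tested. Mesenchymal, immune, endothelial and glial markers summed to 278 to 356 with T3 and 348 to 439 with vehicle, 0 of the 4 tested were called by limma (1 had an unadjusted p under 0.05, and 0 were called in the authors' deposited table), and the endothelial marker Cdh5 was at 0 in every library.

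The genes whose levels over the 6 libraries were most like those of Cbx2, the member with the largest difference, were Myh9, Prmt3 and Jade3 among 10568 named genes with a mean of at least 100 normalized reads. Pearson's r of log2 values was 0.999 for Myh9, 0.998 for Prmt3 and 0.997 for Jade3, over 6 libraries that share the difference between treatments, and 847 genes had an r of at least 0.95. Myh9, a non-muscle myosin heavy chain, stood at 22259 ± 1078 with T3 and 28524 ± 1146 with vehicle, Prmt3, an arginine methyltransferase, at 1452 ± 69.4 with T3 and 1991 ± 90.1 with vehicle, and Jade3 at 516 ± 36.3 with T3 and 813 ± 49.8 with vehicle.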

How the data were processed

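Directional RNA libraries were made from T3 and vehicle organoids, per the labels' protocols. The submitters' processing notes name STAR, Subread and DESeq2, and mm10 is the build in the headings of the deposited columns, per the file headers. Whether strand was used in counting is not stated in those sources. The deposited values are a score for each gene and library, namely reads that the authors divided by a size factor and rounded. The authors also deposited log2 fold changes and p-values of their own comparison, used as an alternative. A count model had been planned and was not used, since these are not raw counts.

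From these values, log2(value + 1) was fitted with limma 3.58.1 in R 4.3.3 with a mean-variance trend, over 13052 genes that reached 10 normalized reads in 3 or more libraries, and p-values were adjusted over all of them (Benjamini-Hochberg, threshold 0.05). The script was tested on simulated data. The log2(value + 1) scale understates the change of low genes. Levels per kilobase used the exonic length in the deposited table. The alternatives were other scalings, filters, pseudocounts and moderation, a replicate block, the authors' deposited comparison and each library left out.

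The members and lists were chosen with earlier results of these data known. The genes named were the members, up to 4 called genes with the smallest p in each machinery list, up to 3 in each marker list, the nearest gene on each side of each member, Klf9, and the 3 genes most like the member with the largest difference. Some genes that the rule or the lists hold are not reported here.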

Additional observations from a re-analysis of the deposited data

How the results depend on the processing

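All 7 members had negative log2 fold changes under all 17 alternatives. The 3 calls of Cbx2, Cbx3 and Cbx6 held in all 17, the call of Cbx1 was lost in 9, and Cbx5 and Cbx8 became calls under upper-quartile scaling and equal column totals. The alternatives reuse the same 6 libraries, and the members were proposed from this comparison, so these counts are no separate support for a difference. Of all genes called, 53.6% were higher with T3, against 40.4% with upper-quartile scaling and 38.7% with equal totals. Genes called lower numbered 2716 in the main fit, 3691 with upper-quartile scaling and 3855 with equal totals. The median log2 fold change of all genes tested was -0.009 in the main fit, -0.065 with upper-quartile scaling and -0.075 with equal totals. Both scalings gave 1 PRC1 gene higher, 12 heterochromatin genes lower, 2 demethylases lower and 2 H2A deubiquitinase genes lower. Without a mean-variance trend, 1 PRC1 gene was higher, and 3 PRC2 genes, 4 heterochromatin genes, 0 H2A deubiquitinase genes and 1 other chromodomain gene were lower. Robust moderation gave 2 demethylases lower. A minimum of 50 normalized reads gave 1 Polycomb target higher, and the authors' deposited comparison gave 1 Polycomb target and 2 other chromodomain genes higher. The heterochromatin share differed by 1.93 points without the length correction, where the groups overlapped. The cause was not tested for these.

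Without single libraries, the numbers of calls ranged as follows. Over all genes, 2070 to 2755 were called lower, against 2716 in the main fit, and 2427 to 3140 higher, against 3135. Both were fewest without T3 replicate 1 and most without T3 replicate 3, so the list counts below are not read as particular to the lists. PRC1 had 1 to 2 higher, PRC2 2 to 4 lower, and heterochromatin genes 1 to 2 higher. Demethylases had 1 to 2 lower, H2A deubiquitinase genes 0 to 1 lower and 1 to 2 higher. Other chromodomain genes had 1 to 3 lower and 1 to 2 higher, and Polycomb targets 1 to 2 higher. The difference in share ranged over 0.961 to 1.68 points.

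Libraries with the same number did not deviate together (r = -0.07, 0.0278 and -0.0568), and only T3 replicate 2 correlated best with its own number. With a replicate block 5405 genes were called rather than 5851, with 2 demethylases lower and 2 other chromodomain genes higher. Depth in raw reads is not given, and the 3 libraries a group limit the precision.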

Other observations

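Chd3 and Kdm6b, which both rose, lie close together, a pair chosen after the values were seen. Chd3 (chromosome 11, 69344351 to 69369391) and Kdm6b (chromosome 11, 69398508 to 69413675) are both on the minus strand of mm10. Chd3 was 3.99-fold and Kdm6b 1.51-fold higher with T3. Between them, Naa38, a subunit of an N-terminal acetyltransferase complex, stood at 1066 ± 49.2 normalized reads with T3 and 974 ± 49.1 with vehicle (SD, n = 3 each, limma adjusted p = 0.0947). Cyb5d1 stood at 108 ± 6.93 with T3 and 97.7 ± 12.9 with vehicle (limma adjusted p = 0.4). Tmem88 had 2 to 12 reads with T3 and 1 to 4 with vehicle and was not tested.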
